A study of Mus musculus with 14 samples.

Results

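The 10 genes described here, of hepatic glucose output and glycogen storage, were followed in the liver of male and female mice before and after puberty. They were chosen by name as Pck1, Pck2, Fbp1, G6pc, Slc37a4, Gys2, Pygl, Gpd1, Ppp1r3b and Ppp1r3c, and all 10 were found among the 19751 named genes of the array, on 11 of its 39429 probes. The livers came from CD-1 mice aged 3, 4 or 8 wk, for which the sources used here describe no engineered allele and no treatment. Male and female liver at these ages is written M3, F3, M4, F4, M8 and F8. Each group was represented by 2 pools of RNA, from 5 mice per pool at 3 wk and 6 mice per pool at 4 and 8 wk. Pools were compared pairwise in 7 competitive hybridizations, between the sexes (M3/F3, M4/F4 and M8/F8), in females (F8/F4 and F8/F3) and in males (M8/M4 and M8/M3), with 2 arrays for each and the dyes exchanged between them. Ratios are given with the male group, or the 8 wk group, on top. The same pools recur in several comparisons, which are therefore not independent of each other. Because each array holds pooled RNA, the spread between the 2 arrays of a comparison holds differences between pools together with those between dyes, and variation between single mice was not measured. The hour at which the mice were killed, and whether they had been fed, are not given in the sources used here.

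Gluconeogenesis makes glucose in the liver from lactate, amino acids and glycerol. Phosphoenolpyruvate carboxykinase (Pck1 in the cytosol, Pck2 in mitochondria) commits oxaloacetate to the pathway, Fbp1 removes a phosphate from fructose 1,6-bisphosphate, and the glucose-6-phosphatase system (the catalytic subunit G6pc and the transporter Slc37a4) releases free glucose. Gpd1 links the pathway to glycerol metabolism. Glycogen is built by the liver synthase Gys2 and broken down by the liver phosphorylase Pygl, and the subunits encoded by Ppp1r3b and Ppp1r3c carry protein phosphatase 1 to the glycogen particle, where it activates the synthase. Pck1 and G6pc are textbook targets of glucagon, which raises them in fasting, and of insulin, which lowers them after a meal. At weaning the diet changes from milk, rich in fat, to chow, rich in carbohydrate.

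The promoters of Pck1 and Ppp1r3c, the members with differences past both the test and the fold threshold in the 7 comparisons, are shown with that of G6pc, a textbook hormone target like Pck1 with none, for the regulatory letters they hold. They are the 250 bases before the start site in RefSeq's GRCm38.p6 promoter table, written 5′ to 3′ on the gene's own strand. Capitals mark matches, on either strand, to the motifs found in them: TGACG (the core of the cAMP response element), TGTTTT (the core of the insulin response sequence) and CACGTG (the E-box, the letters read by clock factors). The search ran from 250 bases before to 50 after the start.
Pck1 (chr2:173152823-173153072, plus strand): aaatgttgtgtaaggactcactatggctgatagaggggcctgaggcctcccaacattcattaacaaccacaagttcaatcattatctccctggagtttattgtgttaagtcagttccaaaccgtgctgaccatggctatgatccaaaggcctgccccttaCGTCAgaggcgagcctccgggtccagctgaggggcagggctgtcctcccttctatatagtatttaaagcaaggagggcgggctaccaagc
G6pc (chr11:101367466-101367715, plus strand): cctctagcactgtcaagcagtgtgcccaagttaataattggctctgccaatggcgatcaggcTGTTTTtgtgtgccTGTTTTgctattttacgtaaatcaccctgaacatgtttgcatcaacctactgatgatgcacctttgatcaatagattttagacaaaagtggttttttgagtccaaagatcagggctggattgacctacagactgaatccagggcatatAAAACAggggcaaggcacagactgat
Ppp1r3c (chr19:36736605-36736854, minus strand): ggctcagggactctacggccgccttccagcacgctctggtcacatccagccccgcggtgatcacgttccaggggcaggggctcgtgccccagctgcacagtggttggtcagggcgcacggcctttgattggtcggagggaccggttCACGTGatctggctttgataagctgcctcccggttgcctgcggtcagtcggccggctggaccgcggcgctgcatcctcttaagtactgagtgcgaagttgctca
Pck1 held TGACG once, from base -90 to -86 on the reverse strand, and 20.8% of all 32851 promoters of this length held it at least once. G6pc held TGTTTT at 3 places, as did 22.1% of promoters at least once, and Ppp1r3c held CACGTG from base -104 to -99, as did 7.15%. No match to the full cAMP response element TGACGTCA, the FOXO core TGTTTAC, the HNF4 core CAAAGTCCA or the C/EBP core TTGCNNAA was found in the promoters of the 7 members in the table. The shares of all promoters with these letters were 1.79%, 3.65%, 0.475% and 10.8%. The promoter of Fbp1 held none of the motifs searched. A match describes letters and shows no binding.

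Genes are referred to as called where the adjusted p in limma was below 0.05, the level differed by more than 1.5-fold, and 1 group or both had a signal that the scanner software rated well above the local background on each of the 2 arrays. Of the 10 members, 9 were well above background in all 28 channels, and Pck2 was so in 19. By the same rule, 0.517% of the named genes tested were called in M3/F3, 1.59% in M4/F4 and, at 8 wk, 6.42% in M8/F8. The shares were 6.02% in F8/F4, 11.7% in F8/F3, 10.8% in M8/M4 and 17.9% in M8/M3. Among the members, 1 of 9 tested was called in M3/F3, 0 of 9 in M4/F4 and in M8/F8, 2 of 10 in M8/M3, and 1 of 10 in each of the other age comparisons. The median log2 ratio of the members was between -0.09 and 0.14 in the 7 comparisons, against medians between 0.00 and 0.02 for all genes tested. The results therefore concern single members.

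**Figure D1:**
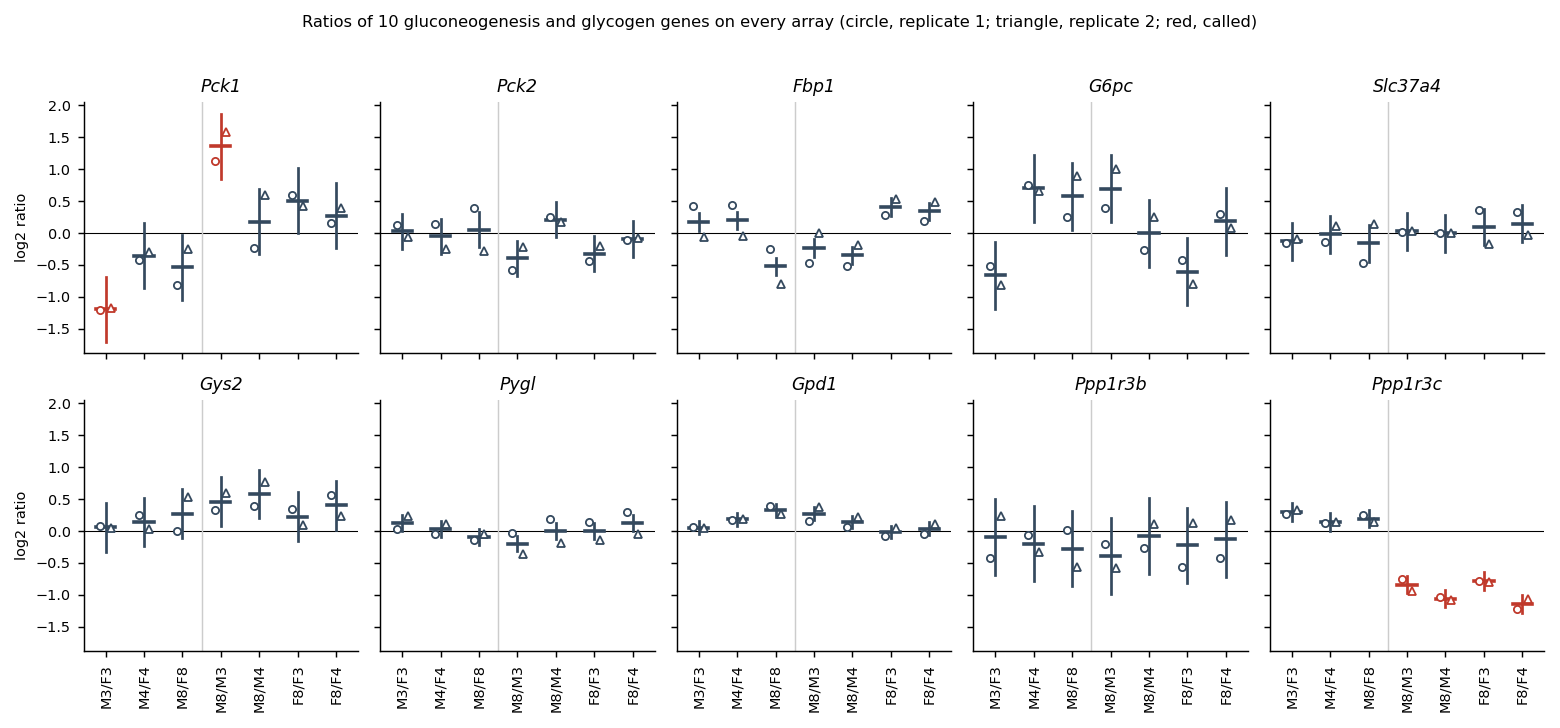
Log2 ratios (vertical axis) of the 10 members in the 7 comparisons (horizontal axis), with circles and triangles for the arrays of replicates 1 and 2, thick bars for the fitted ratio, thin lines for its 95% interval and red for a call. Only Pck1 (M3/F3 and M8/M3) and Ppp1r3c (all 4 age comparisons) were called, and Ppp1r3c was lower at 8 wk on all 8 age arrays.

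Pck1 RNA was low in male liver at 3 wk. In M3/F3 the log2 ratio was -1.21 on replicate 1 and -1.18 on replicate 2, a 2.29-fold lower level in males (fitted log2 ratio -1.19, SE 0.22, adjusted p = 0.0123). In M8/M3 it was 1.13 and 1.58, a 2.56-fold higher level at 8 wk (1.36, SE 0.22, adjusted p = 0.00753). All 4 arrays placed the 3 wk male pools below their partners. The other comparisons of Pck1 were not called. In M4/F4 the arrays read -0.42 and -0.30, and in M8/F8 -0.81 and -0.26, so females were higher on all 6 sex arrays, but the adjusted p was 0.374 at 4 wk and 0.168 at 8 wk. In F8/F3 the arrays read 0.59 and 0.42, and in F8/F4 0.15 and 0.39 (adjusted p = 0.189 and 0.534). The arrays of M8/M4 read -0.24 and 0.60, on opposite sides of 0.

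The levels behind these ratios, on a scale of log2 intensity normalized between arrays, ran for Pck1 from 15.73 in M3 over 16.59 in M4, 16.75 in F3, 16.81 in M8 and 16.87 in F4 to 17.14 in F8. The channels of M3 lay between 15.62 and 15.87, and no channel of another group was below 16.29. From M4 upwards, neighbours in this order overlapped in the range of their channels. The difference of M4 from M3, read through the shared 8 wk pools as M8/M3 minus M8/M4, was 1.18 (1.37 and 0.99 in replicates 1 and 2, SE 0.30) and was not called (adjusted p = 0.167). In that contrast 0.292% of genes were called. For Pck1 it was called at an adjusted p of 0.0444 when the pools that arrays share were put into the covariance. In a fit of 6 group means it was called at 0.0208. With single arrays left out the difference ran from 0.74 to 1.61. The sex difference in the change from 3 to 8 wk was 0.85 (0.54 and 1.16, SE 0.30, adjusted p = 0.2), and from 4 to 8 wk -0.10. The former was called in the fit of 6 group means (0.76, adjusted p = 0.0202). The M3/F3 call of Pck1 ended when either of its arrays was left out (adjusted p = 0.0958 without replicate 1 and 0.0667 without replicate 2), and when p-values were adjusted within each comparison (0.189). The M8/M3 call ended without replicate 2 of M8/M3 (log2 ratio 1.14, adjusted p = 0.0834).

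**Figure D2:**
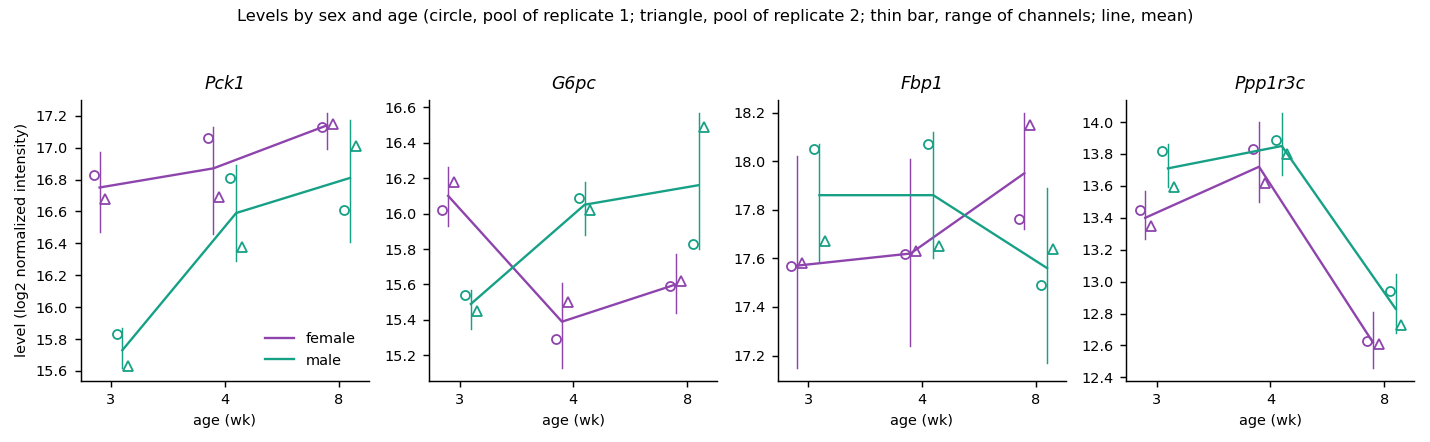
Levels of 4 members in log2 normalized intensity (vertical axis) against age (horizontal axis) in female and male liver, with circles and triangles for the pools of replicates 1 and 2, thin bars for the range of the channels and lines for the mean of the pools. M3 was lowest for Pck1, both sexes were lowest at 8 wk for Ppp1r3c, and the male and female lines crossed for G6pc and Fbp1.

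Pck2, the mitochondrial isoform, was at the edge of detection, with a mean processed signal of 19. It was not tested in the sex comparisons, where neither group was well above background on both arrays. In the age comparisons its log2 ratio was -0.09 in F8/F4, -0.32 in F8/F3, 0.21 in M8/M4 and -0.40 in M8/M3 (lowest adjusted p = 0.0697), and none was called. Gpd1, which interconverts glycerol 3-phosphate and dihydroxyacetone phosphate, differed by less than 1.5-fold throughout. Its ratio in M8/F8 was 0.39 and 0.26, a 1.25-fold higher level in males (0.33, SE 0.04, adjusted p = 0.00342). In M4/F4 it was 0.18 and 0.19 (0.18, adjusted p = 0.0311), and in M8/M3 0.16 and 0.38 (0.27, adjusted p = 0.00727). These 3 differences passed the test on p but were smaller than 1.5-fold, so Gpd1 was not called. Over the alternatives fitted to all arrays the adjusted p reached 0.207 in M4/F4, 0.066 in M8/M3 and 0.0253 in M8/F8. In females the F8/F3 arrays of Gpd1 read -0.08 and 0.05 and the F8/F4 arrays -0.04 and 0.11, on both sides of 0.

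Fbp1, a rate-controlling phosphatase of the pathway, had fitted changes with age of opposite sign in the sexes. In females its F8/F3 arrays read 0.28 and 0.54 and its F8/F4 arrays 0.19 and 0.49, with fitted log2 ratios of 0.41 and 0.34 (SE 0.06, adjusted p = 0.0048 and 0.0102). In males it read -0.47 and 0.00 in M8/M3 and -0.51 and -0.19 in M8/M4, with fitted ratios of -0.24 and -0.35 (adjusted p = 0.0378 and 0.00887). All 4 female age arrays were above 0, and 3 of the 4 male age arrays were clearly below it. None of these 4 changes reached 1.5-fold. Their adjusted p rose to between 0.291 and 0.635 without a dye term, and that of M8/M3 to 0.151 with shared pools in the covariance. With single arrays left out, none of the 4 stayed below an adjusted p of 0.05 throughout. Their fitted ratios then ran from 0.32 to 0.50 in F8/F3 and from 0.27 to 0.40 in F8/F4. In males they ran from -0.27 to -0.20 in M8/M3 and from -0.40 to -0.30 in M8/M4. The difference between the sexes did exceed 1.5-fold. M8/M3 minus F8/F3 was -0.75 in replicate 1 and -0.54 in replicate 2, a 1.57-fold smaller ratio in males (-0.65, SE 0.08, adjusted p = 0.0105). M8/M4 minus F8/F4 was -0.70 and -0.67, a 1.61-fold smaller ratio in males (-0.69, SE 0.08, adjusted p = 0.0159). In these contrasts 3.38% and 1.33% of genes were called, and Fbp1 was the only member called in either. In both contrasts all 8 markers of Kupffer cells, the resident macrophages, read below 0 like Fbp1 (median -0.35 from 3 wk and -0.25 from 4 wk, none called). From 3 wk the stellate and lymphocyte markers had medians of -0.31 and -0.32, and the erythroid markers one of -0.19. Hepatocyte, bile duct and endothelial markers had medians of -0.10, -0.07 and 0.05. Mitosis genes had a median of -0.34. Clock genes that peak by night had one of 0.47, and those that peak by day one of -0.21. The part of cell composition, of cell division and of time of day in the Fbp1 result was not tested.

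At 8 wk Fbp1 was 1.44-fold lower in males, with -0.25 and -0.80 on the M8/F8 arrays (-0.52, SE 0.06, adjusted p = 0.00188), under the 1.5-fold threshold. In the same comparison all 8 Kupffer cell markers were well above background and read lower in males (-1.05 to -0.47). Of these, 4 were called lower, beside 6.42% of all named genes tested that were called in either direction. For Fbp1 at the younger ages the fitted ratio was above 0 (0.18 in M3/F3 and 0.20 in M4/F4, adjusted p = 0.101 and 0.0721), with 1 array on each side of 0 at each age (0.42 and -0.07, and 0.44 and -0.05). The dye effect of the Fbp1 probe was the largest of any member: in the fit its log2 ratio stood 0.21 higher with the numerator group in red and 0.21 lower with it in green. Without a dye term in the model both interaction calls ended (adjusted p = 0.367 and 0.461). Their size cannot change with this term, since dyes were exchanged within every comparison. Both calls also ended with error-weighted averages. Over the alternatives fitted to all arrays they lay from -0.80 to -0.64 and from -0.72 to -0.68. The interactions could also be read from the sex comparisons, which hold the same pools, so this is no independent measurement. M8/F8 minus M3/F3 was -0.66 and -0.74, and M8/F8 minus M4/F4 was -0.69 and -0.75, and Fbp1 was called in both. The 3 to 8 wk interaction fell short of the threshold without either array of M8/M3 or without replicate 1 of F8/F3 (adjusted p up to 0.0697). The 4 to 8 wk interaction did so without replicate 2 of M8/M4 or replicate 1 of F8/F4 (up to 0.0795), and with shared pools in the covariance (0.0831).

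**Figure D3:**
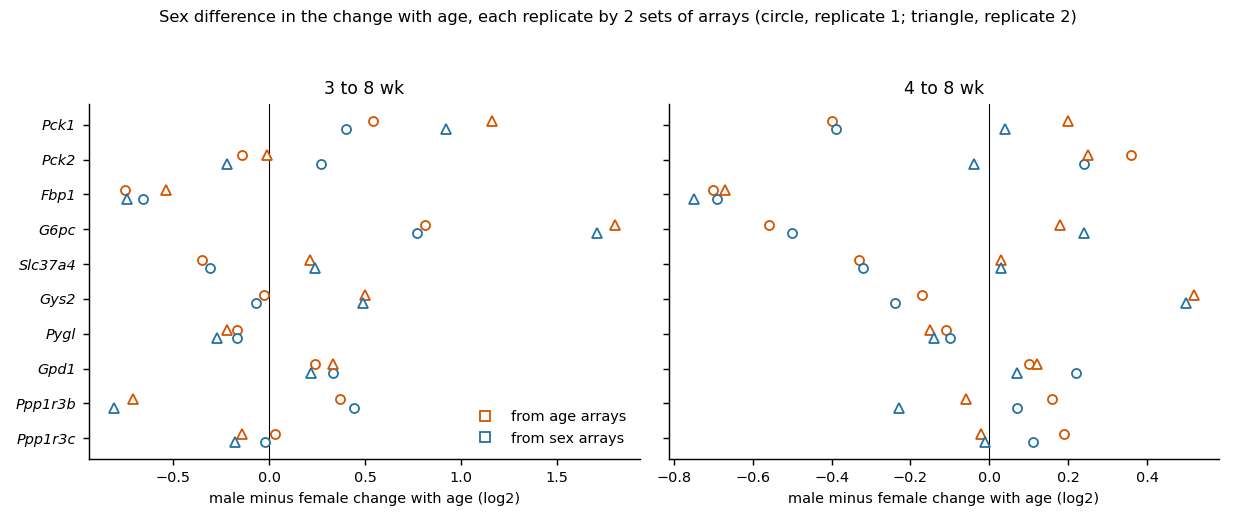
Male minus female change with age (horizontal axis, log2) of the 10 members over both age spans (3 or 4 wk to 8 wk), with orange for the age arrays, blue for the sex arrays, circles for replicate 1 and triangles for replicate 2. For Fbp1 all 8 values lay between -0.75 and -0.54, and for G6pc the replicates of the 4 to 8 wk contrast fell on both sides of 0.

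G6pc, which carries out the last step of glucose release, followed another order. In M3/F3 its arrays read -0.51 and -0.82, in M4/F4 0.76 and 0.65, and in M8/F8 0.26 and 0.89. Males were lower on both arrays at 3 wk and higher on all 4 at 4 and 8 wk. The fitted log2 ratios were -0.66, 0.70 and 0.57 (SE 0.22), and none was called (adjusted p = 0.104, 0.0877 and 0.151). The 3 and 4 wk differences were called in 4 alternatives, for example at 0.0358 and 0.0292 with shared pools in the covariance. With age the arrays read 0.38 and 1.01 in M8/M3 and -0.43 and -0.79 in F8/F3, above 0 in males and below 0 in females, with fitted ratios of 0.70 and -0.61 (adjusted p = 0.0911 and 0.13). Both were called with shared pools in the covariance (0.0305 and 0.0481) and in a fit of 6 group means (0.0173 and 0.032). With single arrays left out they ran from 0.36 to 1.03 in M8/M3 and from -0.85 to -0.37 in F8/F3. M8/M3 minus F8/F3 was 0.81 and 1.80 (1.3, SE 0.31) and missed the threshold (adjusted p = 0.0744). It was called when dim probes were left out before the fit (adjusted p = 0.044), with shared pools in the covariance (0.0346) and in a fit of 6 group means (0.00187). From 4 to 8 wk the difference between the sexes was -0.56 and 0.18, on both sides of 0. On the level scale F4 (15.39), M3 (15.49) and F8 (15.60) formed the lower end and M4 (16.05), F3 (16.10) and M8 (16.16) the upper, and no channel of the lower 3 groups exceeded 15.77 or of the upper 3 fell below 15.80. The pools of M8 differed, at 15.83 and 16.49. Slc37a4, which brings glucose 6-phosphate to the enzyme, stayed between -0.16 and 0.15 in fitted log2 ratio in all 7 comparisons, with the lowest adjusted p at 0.495.

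Of the enzymes of glycogen itself, Gys2 read higher at 8 wk on all 8 age arrays without being called. In females the arrays gave 0.57 and 0.24 in F8/F4 and 0.35 and 0.10 in F8/F3, with fitted log2 ratios of 0.40 and 0.22 (SE 0.16, adjusted p = 0.163 and 0.479). In males they gave 0.40 and 0.76 in M8/M4 and 0.32 and 0.59 in M8/M3, with fitted ratios of 0.58 and 0.46 (adjusted p = 0.0583 and 0.121). Its second probe gave 0.48, 0.31, 0.58 and 0.44 in the same order. Between the sexes Gys2 read from 0.06 in M3/F3 to 0.27 in M8/F8. Pygl, which acts against Gys2, was between -0.20 and 0.13 in all 7 comparisons. Its lowest adjusted p was 0.0528, in M8/M3, where the arrays read -0.03 and -0.36.

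Ppp1r3c, whose product targets protein phosphatase 1 to glycogen, was lower at 8 wk than at either younger age in both sexes, and was the member with most calls. The arrays read -0.74 and -0.94 in M8/M3, a 1.79-fold lower level (-0.84, SE 0.06, adjusted p = 0.000351). They read -1.04 and -1.08 in M8/M4, a 2.08-fold lower level (-1.06, adjusted p = 0.000178). They read -0.78 and -0.79 in F8/F3, a 1.72-fold lower level (-0.78, adjusted p = 0.000429). They read -1.23 and -1.06 in F8/F4, a 2.21-fold lower level (-1.14, adjusted p = 0.000147). Replicates of a comparison differed by much less than the distance of either from 0. These 4 calls stood under each of the 12 alternatives tried and each of the 14 arrays left out in turn. On the level scale the channels at 8 wk lay between 12.46 and 13.05, and those at 3 and 4 wk between 13.27 and 14.06, so the ages did not overlap.

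The fall of Ppp1r3c did not differ detectably between the sexes. M8/M3 minus F8/F3 was -0.05 (95% interval -0.25 to 0.14) and M8/M4 minus F8/F4 was 0.09 (-0.11 to 0.28). Males were slightly higher in M3/F3, at 0.27 and 0.32 (0.30, adjusted p = 0.0159, under 1.5-fold). Between 3 and 4 wk the estimates through the 8 wk pools were 0.22 in males (0.29 and 0.14, adjusted p = 0.32) and 0.36 in females (0.45 and 0.27, adjusted p = 0.189). In the female contrast 0.0931% of genes were called and no member was. The 5 genes whose 14 ratios were most like those of Ppp1r3c were Uty, Phlda3, Eif2s3y, Ttk and Ddx3y (Pearson's r 0.971 to 0.962 over 14 arrays, among 3540 genes called at least once). These r values mainly set the 6 sex arrays, where the ratios of Ppp1r3c were above 0, against the 8 age arrays, and 3 of the 5 genes lie on the Y chromosome.

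Ppp1r3b, the main targeting subunit of liver, was not called anywhere (-0.39 in M8/M3 to -0.08 in M8/M4, SE 0.25). Its replicates disagreed in sign in 5 of the 7 comparisons. The family split further. Ppp1r3d, a widely expressed subunit, was lower at 8 wk in M8/M3 (-1.06 and -1.32, fitted -1.19, adjusted p = 8.65e-05), M8/M4 (-0.67) and F8/F3 (-0.87), and its F8/F4 ratio was -0.44, under the fold threshold. Ppp1r3g, a subunit linked to glycogen storage after feeding, was higher at 8 wk in M8/M3 (3.39 and 3.97, fitted 3.68, SE 0.69, adjusted p = 0.014), M8/M4 (2.72, adjusted p = 0.0427) and F8/F4 (2.89, adjusted p = 0.0345). In F8/F3 Ppp1r3g read 3.00 and 0.84 and was not called (adjusted p = 0.126). Ppp1r3e read between -0.31 and 0.02 with age, Ppp1r3f could be tested only in F8/F4 (0.43, adjusted p = 0.599), and Ppp1r3a was too dim to test in any of the 7 comparisons.

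**Figure D4:**
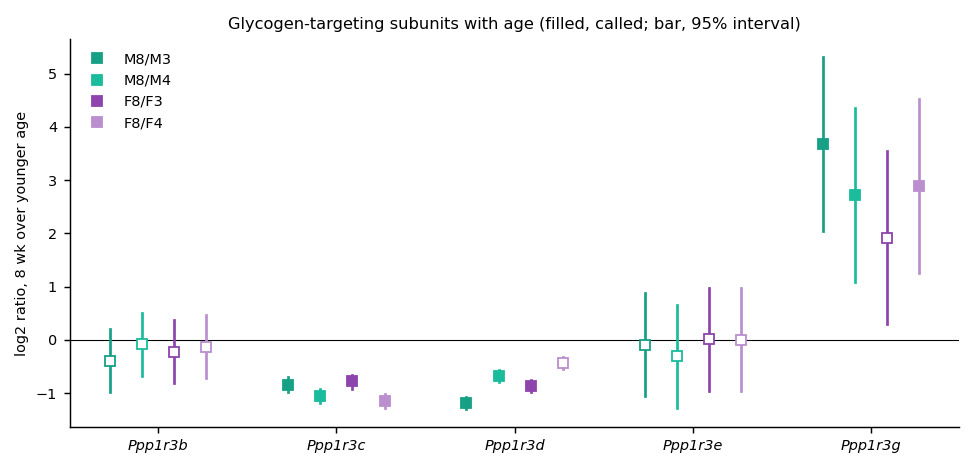
Fitted log2 ratios of 8 wk over the younger age (vertical axis) for 5 glycogen-targeting subunits (horizontal axis) in the 4 age comparisons, with lines for 95% intervals and filled squares for calls. Ppp1r3c and Ppp1r3d lay below 0 in all 4, Ppp1r3g lay above 0 in all 4, and the intervals of Ppp1r3b and Ppp1r3e included 0.

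The wider pathways were counted beside the members. Of the 15 genes of shared steps and sister isoforms, no more than 2 were called in any comparison, and the genes of the reversible reactions between phosphoenolpyruvate and fructose 1,6-bisphosphate were not called in any. Got1, the cytosolic aspartate aminotransferase, which regenerates oxaloacetate from aspartate, was lower in males in M4/F4 (-0.87 and -0.97, fitted -0.92, adjusted p = 0.00436) and in M8/F8 (-1.86 and -1.46, fitted -1.66, adjusted p = 0.000502). From 3 to 8 wk it fell in males (-0.63, adjusted p = 0.0182) and rose in females (0.65, adjusted p = 0.0164), and the sexes differed in that change (-1.29, adjusted p = 0.014). G6pc2, a glucose-6-phosphatase subunit best known from pancreatic islets, was well above background in all 6 channels of M8, in 4 of 6 of F8, in 2 of 4 of M4 and in no channel of F3, M3 or F4. It was called higher in M8/M3 (adjusted p = 0.000757 for the fitted ratio). With M3 set at the detection floor, M8 was at least 2.25-fold higher, a bound that was not itself tested. G6pc2 was also called higher in M8/M4 (adjusted p = 0.0021), in F8/F4 (0.0112) and, in males, in M8/F8 (0.00736). No fold is given where part of the channels did not measure it. The fit also called M8/M3 minus F8/F3 (0.0302). F8/F3 itself was too dim to test, so a sex difference in the change cannot be read from that contrast. Of the 24 other glycogen genes, 2 were called higher and 2 lower at 8 wk among 21 tested in M8/M3. None was called in a sex comparison. Besides the Ppp1r3 genes, Pygb, the brain phosphorylase, fell in M8/M3 (-1.10, adjusted p = 0.00345) and F8/F3 (-0.74, adjusted p = 0.0161).

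Of the 18 genes of substrate entry, 17 were tested in M8/F8, where 1 was called higher and 2 were called lower in males. Aqp7, a glycerol channel, was higher in males at 8 wk (1.57 and 1.81, fitted 1.69, adjusted p = 0.00588) and rose in M8/M3 (1.89) and M8/M4 (2.17). Mpc1, part of the mitochondrial pyruvate carrier, was lower in males at 8 wk (-0.76 and -0.96, fitted -0.86, adjusted p = 0.00222), as was Slc16a7, a monocarboxylate transporter (-0.74, adjusted p = 0.000679). Both differed between the sexes in the change from 3 to 8 wk (-0.90 and -0.65, adjusted p = 0.02 and 0.0124). Sds, which makes pyruvate from serine, rose from 3 to 8 wk in both sexes (1.01 in M8/M3 and 1.24 in F8/F3, adjusted p = 0.0284 and 0.0129), and Gpt2, an alanine aminotransferase, rose in F8/F3 and F8/F4 (0.75 and 0.78, adjusted p = 0.043 and 0.0372).

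Of 28 regulators, 26 were tested in M3/F3 and 2 were called, beside 0.517% of all named genes tested. Both were lower in males, like Pck1, with adjusted p just under 0.05. Igfbp1, a secreted protein that insulin represses, read -1.59 and -2.50 (fitted -2.04, SE 0.53, adjusted p = 0.0481), and Cebpb, a transcription factor of the fasting response, read -0.41 and -0.79 (fitted -0.60, adjusted p = 0.0463). Cebpb also rose with Pck1 in M8/M3 (1.12, adjusted p = 0.00455), and rose in M8/M4 (0.77, adjusted p = 0.0193). Klf15, an activator of amino acid use and of Pck1, rose in M8/M3 (0.77, adjusted p = 0.000435) and M8/M4 (0.71, adjusted p = 0.000586). Ppargc1a, a coactivator of Pck1 and G6pc, was lower in males in M4/F4 (-1.19 and -1.02, fitted -1.10, adjusted p = 0.0143), where Pck1 was not called and G6pc read higher in males. It was higher at 8 wk in M8/M4 (0.81) and F8/F3 (0.82). Sik1, which restrains the glucagon response, fell in M8/M3 (-0.73) and F8/F3 (-0.91), as did Pfkfb1, the enzyme that makes and removes fructose 2,6-bisphosphate (-0.94 and -0.70). Pklr, the liver pyruvate kinase that works against gluconeogenesis, differed between the sexes in the change from 3 to 8 wk (-0.85, adjusted p = 0.0281), in the same direction as Fbp1.

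Other features of the samples moved with age, as Ppp1r3c did. The counts of genes that rose or fell are counts of calls. Of 6 clock genes that peak by day, 5 rose in F8/F3 and 4 in each other age comparison (medians 2.16 to 2.95). Dbp, for example, read 2.42 and 3.09 in M8/M3. Of 5 clock genes that peak by night, 4 fell in F8/F4, 2 in F8/F3, 2 in M8/M4 and 1 in M8/M3, with none of either list called in a sex comparison. All 10 mitosis genes fell in each age comparison (medians -3.82 to -3.02), as did 5 of 7 erythroid genes. Alas2, the erythroid enzyme of heme synthesis, went the other way in males (1.37 in M8/M3 and 0.98 in M8/M4, adjusted p = 0.00229 and 0.00823), and was higher in males in M4/F4 (0.78) and M8/F8 (1.89). Of 7 stellate and mesenchymal markers, 4 fell in M8/M3 and 3 in each other age comparison (medians -0.67 to -0.33). Of 8 Kupffer cell markers, 2 fell in each male age comparison and 1 in each female one (medians -0.51 to -0.15). Of 6 bile duct markers 1 or 2 fell, and of the endothelial and lymphocyte markers at most 1 of 7 and 1 of 6. Of 8 hepatocyte markers, which were well above background in all comparisons, at most 1 was called in each direction (medians of the age comparisons -0.26 to -0.04). In bulk liver, fewer cells of a type and less RNA per cell cannot be told apart. The part of time of day, of feeding and of cell composition in the results for the members was not tested. The age comparisons were spread over both scanning days, with M8/M3 on the first and the other 3 on the second, and each comparison lay within 1 day, so day and comparison cannot be told apart for these.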

How the data were processed

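RNA was hybridized by the authors to 2-colour Agilent arrays. The deposited values, per the file headers, came from Feature Extraction 10.7.1.1 with linear and LOWESS dye normalization. The authors' log10 ratios of red over green were converted to log2 and oriented by the dyes in the labels. Deposited intensities (medians of spot and background, not normalized) served for levels, corrected with normexp (offset 50), loess and Aquantile normalization. The deposited series table held the same log10 ratios (largest difference 0), with a median of 0 in every column, so it was red over green with no further centring. Columns of other samples numbered 0. Spots marked non-uniform (0 to 10 per array) were left out, and no spot was saturated. Of 43020 non-control spots, 57.8% to 77.2% were well above background in red and 55.2% to 69.6% in green, and the number of arrays limits the precision. RefSeq accessions (GRCm38.p6) named 26055 of 39429 probes, and the probe with the highest mean signal stood for a gene.

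limma 3.58.1 in R 4.3.3 fitted 7 comparison coefficients and a dye term to the 14 arrays. Benjamini-Hochberg adjustment covered the probes of the 7 comparisons jointly, and the probes of each contrast on their own. The study's Rosetta software was replaced by limma. The methods' text assigns the dyes of replicate 1 of M3/F3 the other way round than the labels. The labels were followed, and 3 of 3 bright Y chromosome genes were higher in males in all 3 sex comparisons. Replicate numbers stand for separate pools, which arrays share: differences between replicates in M8/M3 minus F8/F3 and in M8/F8 minus M3/F3 correlated across 25609 probes (r = 0.676, and 0.694 for 4 wk). Genes on an array are not independent replicates. The model was tested on simulated data with noise drawn independently for each array. Such data hold no shared pools, so the test cannot show false calls that shared pools make. The members and lists were chosen with earlier results of these data known. All 10 members were named. From other lists, genes called in at least 2 age comparisons, or in any sex comparison or interaction, were named, up to 8 a list. The likeness to the member with most calls was described for 5 genes. Figures were drawn with matplotlib 3.10.9.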

Additional observations from a re-analysis of the deposited data

Results flagged for a closer look

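The change of Fbp1 with age differed between the sexes in both interaction tests as fitted. M8/M3 minus F8/F3 was -0.65 on the log2 scale (adjusted p = 0.0105), and M8/M4 minus F8/F4 was -0.69 (adjusted p = 0.0159), with males below females in both replicates of each. All 8 Kupffer cell markers read below 0 in both contrasts (medians -0.35 and -0.25). The hepatocyte markers had medians of -0.10 and -0.07, with single markers on both sides of 0. The part of cell composition in the result was not tested. Over the alternatives fitted to all arrays the differences lay from -0.80 to -0.64 and from -0.72 to -0.68. Both calls were lost without a dye term (adjusted p = 0.367 and 0.461, with the size fixed by the exchange of dyes), with error-weighted averages (-0.64 and -0.68), and when certain single arrays were left out (up to 0.0697 and 0.0795). The 4 to 8 wk call was also lost with shared pools in the covariance (0.0831).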

How the results depend on the processing

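None of the 24 ratios of members that were called in any fit reversed its direction under an alternative or without an array. Counts of members called were unchanged on the series table values, without the brightness condition, with the other Gys2 probe and with a replicate block, under which 2 were called in M8/M3. A replicate block with shared pools in the covariance gave 2 in M3/F3, 1 in M4/F4, 3 in M8/M3, 2 in F8/F3, 2 in M8/M3 minus F8/F3, 0 in M8/M4 minus F8/F4 and 1 in M8/M3 minus M8/M4. A fit of 6 group means gave 2, 1, 3, 2 and 3 in M3/F3, M4/F4, M8/M3, F8/F3 and M8/M3 minus F8/F3, and 1 in M8/M3 minus M8/M4. Normexp and loess gave 2 in M3/F3 and 1 in M4/F4, as did error-weighted averages, which gave 0 in both interactions, as did the fit without a dye term. Leaving out dim probes gave 2 in M8/M3 minus F8/F3, and adjustment within each comparison gave 0 in M3/F3. Without a fold threshold 1 member was called in M4/F4, 4 in M8/M3 and 2 in each other comparison. Leaving out each array in turn gave 0 to 1 in M3/F3, in M8/F8 and in each interaction, 1 to 2 in M8/M3, 0 to 0 in M4/F4 and in the contrasts of 3 and 4 wk, and 1 to 1 in M8/M4, F8/F3 and F8/F4. Fbp1 entered M8/F8 without replicate 1 of M8/F8 (-0.61, adjusted p = 0.00709). The added member in M3/F3, M4/F4, M8/M3 and F8/F3 was G6pc in each of these settings other than the fold threshold, where it was Ppp1r3c in M3/F3, Gpd1 in M4/F4, Fbp1 and Gpd1 in M8/M3 and Fbp1 in F8/F3. Where no construction of the alternative shows it, the cause was not tested. Pck2 is limited by its dim signal.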
